A study of Mus musculus with 14 samples.

Results

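Brain of calorie-restricted mice was set against brain of control mice on 4 of the 14 arrays of the study, 2 for each diet. Of the 25697 features of the array, 14548 stood above background (detection p under 0.05) on at least 2 of the 6 brain arrays. Each gene was represented by its brightest feature, which left 9956 of the 16593 genes with a symbol. The mice were male C57BL/6 animals that entered the diets at 13 months of age. Control mice ate normal diet ad libitum, and mice on calorie restriction (CR) were given 70% of the control food. Another group ate normal diet with 0.066% β-lapachone (βL), a quinone that the enzyme NQO1 reduces. Its 2 brain arrays entered the fit of the spread, and their values are given beside the others. The labels name the tissue as brain, while the design text of the series speaks of cortex. The sources used here do not give how long these animals had been on the diets. Nor do they say that the 2 arrays of a diet held RNA of separate mice, so a p-value measures the spread between arrays only, and that spread may be technical.

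Calorie restriction is the best studied dietary way to slow ageing in rodents and is known for low levels of inflammatory mediators. Inflammation in the body reaches the brain largely through its borders, which are the vessel wall, the macrophages around vessels and in the meninges, and the choroid plexus, an epithelium in the ventricles that secretes cerebrospinal fluid. Immediate early genes are a separate group, transcribed in neurons within minutes of activity and quickly silenced again.

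Before normalization the median intensity of the 6 brain arrays was 79.88 to 126.8, and 53.87% to 55.38% of features were above background on each. Across genes, which are not replicates, the 2 control arrays correlated with r = 0.9952, the 2 CR arrays with r = 0.9937 and arrays of different diets with r = 0.9911 to 0.9944, so the CR arrays were no closer to each other than some arrays of different diets. Markers of neurons (Slc17a7, Gad1, Syt1), astrocytes (Gfap, Aqp4), myelin (Mbp, Mog) and microglia (Cx3cr1, P2ry12) were above background on all 6 arrays, but the features of the neuronal genes Snap25 and Neurod6 were on 0. Genes best known from striatum (Drd1, Drd2, Rgs9) and thalamus (Tcf7l2, Prkcd) were also above background on all 6. Hypothalamic markers were mixed, with Oxt above background on 6 arrays, Pmch on 3, Avp on 2 and Hcrt on 0. Those of cerebellum (Gabra6, Pcp2, Cbln3), pituitary (Gh, Prl) and most of muscle (Ckm, Mylpf, Tnnt3) were on 0.

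In brain, the genes that passed the test on CR were nearly all lower than on control. Of 9956 genes tested, 22 fell (0.221% of those tested) and 1 rose (0.01%) at an adjusted p under 0.05 (limma). In all 23 the 2 CR arrays lay apart from the 2 control arrays, as they did in 3759 of all genes. The lower genes included genes of neutrophils and the acute phase (Lcn2, S100a8, S100a9, Ltf, Lrg1, Pglyrp1, Fpr2) and an immune enzyme gene (Ch25h). The others were vessel genes (Vwf, Slc38a5), genes of macrophages and of antigen presentation (Lyz1, Lyz2, Cd74, H2-Ab1), choroid plexus genes (Ttr, Ecrg4, Kl, Clic6) and immediate early genes (Npas4, Arc, Junb, Fos). By size alone, 57 genes were lower (0.573%) and 8 higher (0.0804%) by a fold of 1.5. Together these 65 became 97 without control replicate 1, 134 without control replicate 2, 135 without CR replicate 1 and 153 without CR replicate 2. At an unadjusted p under 0.05, 464 were lower (4.66%) and 347 higher (3.49%). The median log2 fold change of all genes was 0.00176, with 50.5% of genes above 0 and quartiles of -0.0957 and 0.0919. With 2 arrays against 2, an exact two-sided permutation test of a single gene cannot go below p = 0.333, so the calls rest on the spread that limma shares across genes. Without control replicate 1 or control replicate 2 limma called 3 genes, without CR replicate 1 it called 6, and without any other single brain array it called 8. With only the 4 control and CR arrays in the fit it called 8, and the methods' t-test called 0 after adjustment, with 690 genes at an unadjusted p under 0.05. In the 2 fits with 1 control array, 4 of the 23 genes had no value, since only the control arrays had carried them past the filter.

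**Figure D1:**
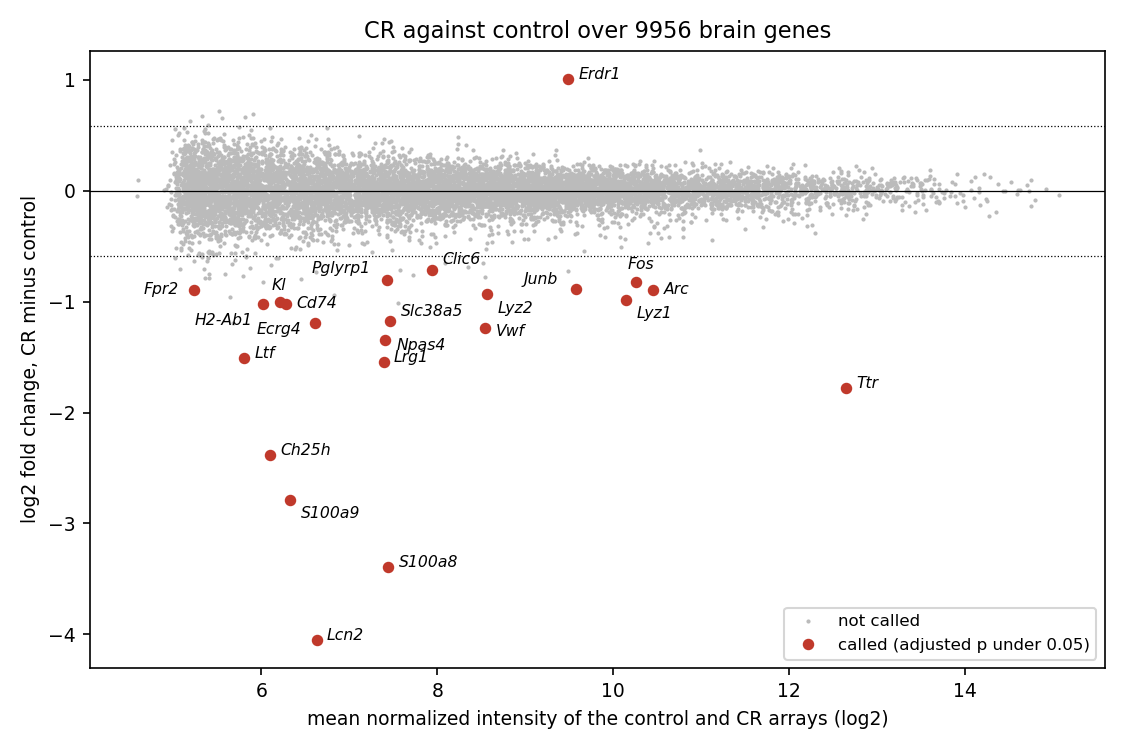
Log2 fold change of CR minus control (vertical axis) against the mean log2 normalized intensity of the 4 control and CR arrays (horizontal axis) for 9956 brain genes. Red points are the 23 genes called by limma at an adjusted p under 0.05, 22 of them below 0, and dotted lines mark a fold of 1.5. The cloud of all genes is centred on 0 and has no second group of genes above it.

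Lcn2, which encodes lipocalin 2, an innate immune protein that captures bacterial iron carriers, had the largest difference of all genes. Its log2 intensity was 8.62 and 8.69 on the control arrays, 4.66 and 4.55 on the CR arrays and 4.69 and 4.59 on the βL arrays. It was above background on both control arrays and on no other brain array. In these background-corrected values CR was therefore at least 10.5-fold lower than control (measured log2 fold change -4.05, SE 0.09, adjusted p = 2.12e-05, limma). Such a bound sets the control mean against the lowest signal that still counted as above background on each CR array. Each fold given as a minimum is a bound within the background-corrected values only, and other processing gave smaller differences for Lcn2. S100a8 and S100a9 encode the subunits of calprotectin, the main cytosolic protein of neutrophils. S100a8 was at 9.19 and 9.08 on control, 5.72 and 5.78 on CR and 6.38 and 6.28 on βL, and stayed above background on all 6 arrays. Its level was 10.5-fold lower on CR (log2 fold change -3.39, 95% interval -3.61 to -3.17, adjusted p = 3.18e-05, limma). S100a9 was at 7.84 and 7.60 on control against 4.94 on each CR array, both below background, which made CR at least 5.52-fold lower (adjusted p = 0.000187, limma). For both genes the control arrays stood far above all other brain arrays.

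Ch25h and further genes of neutrophils and the acute phase were lower by less. Ch25h, which makes the immune oxysterol 25-hydroxycholesterol, was at 7.25 and 7.34 on control and at 4.83 and 4.98 on CR, at least 4.09-fold lower (adjusted p = 0.000187, limma). Ltf, the gene of lactoferrin in neutrophil granules, was at 6.61 and 6.51 on control and at 5.06 and 5.04 on CR, at least 2.46-fold lower (adjusted p = 0.00187, limma). A second feature of Ltf was above background on 0 brain arrays. Lrg1, an acute-phase glycoprotein also made in inflamed vessels, was at 8.16 and 8.17 on control and at 6.61 and 6.62 on CR, a log2 fold change of -1.55 (SE 0.12, adjusted p = 0.00753, limma). In each of Ch25h, Ltf and Lrg1 the arrays of a diet lay close together and the diets did not overlap. Pglyrp1, which binds bacterial peptidoglycan, fell by 0.80 on the log2 scale (SE 0.08, adjusted p = 0.0224, limma). Fpr2, a formyl peptide receptor of phagocytes, was dim even on control (5.59 and 5.77) and at least 1.34-fold lower on CR (adjusted p = 0.03, limma). Fpr2, Lcn2, S100a9 and Ltf passed the filter only through the control arrays, so that a difference between the diets was built into their selection. Among 15 measured of 32 listed genes of neutrophil granules and receptors, 6 were called lower, 0 higher, 13 lay below 0 and the median log2 fold change was -0.37. This list was drawn up after the values had been seen, and 5 of the 15 passed through the control arrays alone. The median was -0.68 without CR replicate 1, -0.76 without βL replicate 2 and -0.20 with no filter on dim features. Its summed intensity was 2058 and 2003 on control, 710.1 and 704.2 on CR and 711.6 and 767.4 on βL. Most of the difference between control and the other arrays in this sum came from Lcn2, S100a8 and S100a9. The sum therefore does not describe the other members. Markers of neutrophils that were not called included Camp, the cathelicidin, at -0.75 (adjusted p = 0.263, limma), Ngp, below background on CR and at least 1.14-fold lower there (adjusted p = 0.542), and Mmp9 at 0.02. In bulk tissue, fewer cells of a type and less RNA in each cell cannot be told apart.

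The size of these differences changed with the processing of the intensities, so the minimum folds given above do not hold across the alternatives. With background correction alone left out, the log2 fold change was -2.86 for Lcn2, -2.58 for S100a8 and -1.78 for S100a9. Ch25h was then at -1.46, Ltf at -0.84 and Fpr2 at -0.50. In the authors' own normalized values, which carry no background model, the log2 fold change was -2.10 for Lcn2, -2.15 for S100a8, -1.19 for S100a9, -0.91 for Ch25h and -0.48 for Ltf, each still called (adjusted p = 1.28e-07 to 0.00785, limma), and that of Fpr2 was -0.27 and was not (adjusted p = 0.201). When 1 brain array was left out, S100a8 and Ch25h were called in 6 of 6 fits and Lcn2, S100a9 and Ltf in 4 of 4 with a value. The call of Lrg1 held only without a βL array, and its adjusted p was 0.21 and 0.17 without control replicate 1 or control replicate 2, and 0.0742 and 0.0778 without CR replicate 1 or CR replicate 2. Those of Pglyrp1 (adjusted p = 0.0936 to 0.276, limma) and Fpr2 (0.107 to 0.229) were lost without any single array that left them a value.

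**Figure D2:**
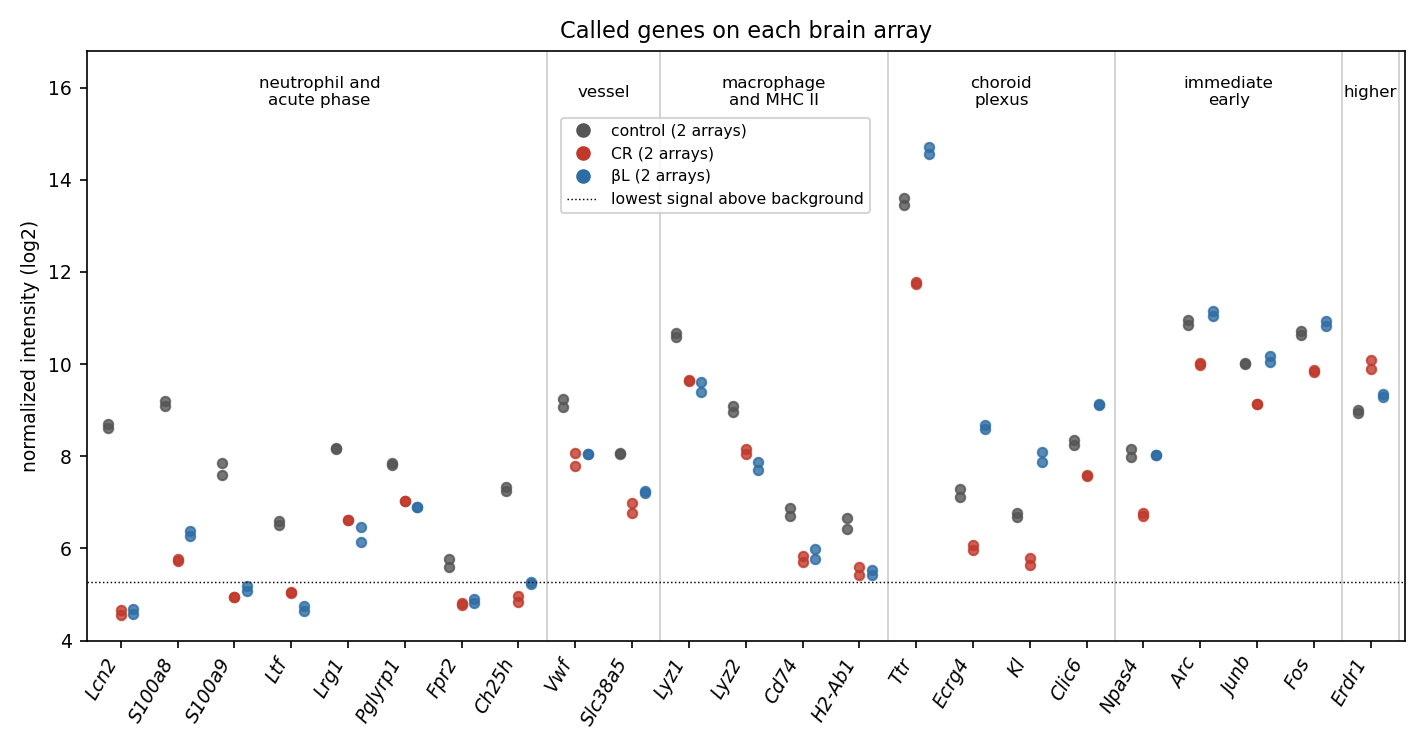
Log2 normalized intensity (vertical axis) of the 23 called genes on each of the 6 brain arrays, 2 per diet, grouped by what the genes are known for. The immune enzyme gene Ch25h is drawn with the neutrophil and acute phase genes. The dotted line is the highest of the arrays' lowest signals above background. Control arrays stand above CR arrays in 22 genes, and βL arrays stand near CR for the inflammatory genes and at or above control for the choroid plexus and immediate early genes.

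Printed next are the 250 bases before the transcription start of the 3 genes with the largest differences, taken from RefSeq (GRCm38.p6), 5′ to 3′ on the gene's own strand. They are shown because C/EBP factors, which bind such promoters in myeloid and inflamed cells, have a simple recognition motif that can be looked for in the letters. Capitals mark a C/EBP motif (TTNNGNAA on either strand) or a TATA box (TATAA on the gene's strand). The Lcn2 window lies at chr2:32387740-32387989 (minus strand), that of S100a8 at chr3:90668821-90669070 (plus strand) and that of S100a9 at chr3:90695722-90695971 (minus strand).
Lcn2: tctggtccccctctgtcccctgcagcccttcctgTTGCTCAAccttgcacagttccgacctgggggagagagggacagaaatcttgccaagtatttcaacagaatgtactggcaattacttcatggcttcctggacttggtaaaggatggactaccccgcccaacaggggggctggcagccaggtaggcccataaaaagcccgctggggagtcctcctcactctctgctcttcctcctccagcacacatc
S100a8: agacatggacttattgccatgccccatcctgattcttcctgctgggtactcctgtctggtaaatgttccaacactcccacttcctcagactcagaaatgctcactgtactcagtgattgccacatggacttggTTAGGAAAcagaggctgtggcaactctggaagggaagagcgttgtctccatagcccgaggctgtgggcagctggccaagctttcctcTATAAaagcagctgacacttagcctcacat
S100a9: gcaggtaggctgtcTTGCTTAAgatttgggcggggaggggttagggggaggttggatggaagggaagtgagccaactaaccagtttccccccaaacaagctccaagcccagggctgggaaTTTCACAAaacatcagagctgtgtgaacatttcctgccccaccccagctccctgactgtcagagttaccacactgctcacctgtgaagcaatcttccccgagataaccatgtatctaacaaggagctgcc
Each of these windows holds at least 1 C/EBP motif, and S100a8 also a TATA box at position -30 from the start. The motif is loose, since 36.8% of the 32851 promoter windows in the table hold it, against 10 of the 16 called genes whose window was read. The first share counts windows and the second counts genes. A match describes the letters and does not show that a factor binds.

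Vwf and Slc38a5, both expressed in the vessel wall, fell on CR. Vwf, the von Willebrand factor that tethers platelets, was at 9.25 and 9.07 on control, 8.06 and 7.79 on CR and 8.04 and 8.05 on βL, a log2 fold change of -1.24 (SE 0.12, adjusted p = 0.0224, limma). Slc38a5, an amino acid transporter of the blood-brain barrier, was at 8.06 and 8.04 on control, 6.77 and 6.99 on CR and 7.20 and 7.24 on βL, a log2 fold change of -1.17 (SE 0.10, adjusted p = 0.012, limma). Both CR arrays lay below both control arrays for either gene. Among 26 measured of 38 listed genes of inflamed vessels and the acute phase, 6 were called lower, 1 lay above 0 and the median was -0.52. This list too was drawn up after the values had been seen, and 5 of the 26 were above background on no CR array. It shares members with the neutrophil list, Lcn2 among them, so the called genes of these lists are not separate sets. Ifitm3, an interferon-induced membrane protein, narrowly missed the threshold with 9.84 and 9.85 on control and 9.13 and 9.12 on CR (adjusted p = 0.0504, limma). Selp, the P-selectin that catches leukocytes, was above background on the control arrays only and at least 1.36-fold lower on CR, and Icam1, an adhesion molecule, was at -0.47 (adjusted p = 0.305 for each, limma). Klf2, a transcription factor that blood flow induces in endothelium, was at -1.02 (adjusted p = 0.0584, limma), and Cd14, the receptor for bacterial lipopolysaccharide, at -0.83 (adjusted p = 0.0777). Of 21 measured endothelial genes 2 were called lower (Vwf and Pglyrp1), 13 lay below 0 and the median was -0.05. At an unadjusted p under 0.05, 4 of them were lower and 0 higher. Pecam1, the adhesion molecule of endothelial junctions, was at -0.42 and Ly6c1 at -0.32, with the diets apart but neither called (adjusted p = 0.355 and 0.434, limma), while Flt1 was at -0.07, Slco1a4 at 0.03 and Tie1 at 0.20 with overlapping diets. Slc38a5 kept its call only without CR replicate 2 (adjusted p = 0.0329, limma) and was otherwise at 0.0711 to 0.276 with 1 array left out. Vwf had an adjusted p of 0.056 to 0.276 in the 6 such fits, highest without control replicate 1.

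Lyz1, Lyz2, Cd74 and H2-Ab1, known from macrophages and antigen presentation, fell on CR. Lyz1 and Lyz2 encode lysozyme, and their transcripts are so alike that their features may not tell them apart. Lyz2 was at 9.10 and 8.97 on control, 8.16 and 8.04 on CR and 7.71 and 7.88 on βL, a log2 fold change of -0.93 (SE 0.10, adjusted p = 0.0316, limma). Its other feature above background gave -0.96, and Lyz1 gave -0.98 (adjusted p = 0.0262, limma). Cd74, the invariant chain that escorts MHC class II molecules, was at 6.88 and 6.70 on control, 5.84 and 5.70 on CR and 5.99 and 5.77 on βL (log2 fold change -1.02, SE 0.12, adjusted p = 0.037, limma). H2-Ab1, the beta chain of an MHC class II molecule and a member of a gene family with similar copies, was at 6.65 and 6.41 on control, 5.43 and 5.59 on CR and 5.53 and 5.43 on βL (log2 fold change -1.02, adjusted p = 0.0316, limma). In all of these the CR and βL arrays lay below the control arrays. The other features of Cd74 (-0.65) and H2-Ab1 (-0.90, -0.57 and -0.44) pointed the same way. When all features above background were tested together, neither these nor any feature of Lyz2 was called, and the features used above had an adjusted p of 0.0618 for Cd74 and 0.0533 for H2-Ab1 and Lyz2 (limma). Fos, Kl and Fpr2 (adjusted p = 0.0533 each, limma) and Clic6 (0.0734) also lost their calls in that test.

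Among 13 measured of 26 listed genes of MHC class II and border macrophages, also listed after the values had been seen, 4 were called lower, 2 lay above 0 and the median was -0.61 (-0.13 with no filter on dim features). H2-Eb1, another class II chain, was at -0.59 (adjusted p = 0.357, limma). Fcgr4, an activating Fc receptor, was above background on the control arrays only, through which it passed the filter, and was at least 2.03-fold lower on CR without being called (adjusted p = 0.0959, limma), whereas Mrc1, the mannose receptor of border macrophages, was at 0.22. The wider list of microglia and macrophages had 22 of 28 genes measured, with 2 called lower, 18 below 0 and a median of -0.29. Values differed among its members. The complement genes C1qa, C1qb and C1qc were at -0.47, -0.42 and -0.32, while P2ry12 and Gpr34, receptors of resting microglia, were at 0.23 and 0.25 and Tmem119 was at -0.14, and none of these was called. The summed intensity of the 22 genes was 11209 and 11117 on control, 9214 and 9190.1 on CR and 8293 and 8721 on βL. Of 28 measured genes often higher in aged mouse brain, 1 was called (Lyz2), 25 lay below 0 and the median was -0.19. Lgals3, a lectin of activated phagocytes, was at -0.73 (adjusted p = 0.0777, limma) and Gfap, the astrocyte filament, at -0.15. Among 21 measured genes of the interferon response and antigen presentation, 2 were called lower (Cd74 and H2-Ab1) and the median was -0.12 (-0.19 without control replicate 1). With 1 array left out, Lyz1, Lyz2, Cd74 and H2-Ab1 were called in no fit, with adjusted p values (limma) of 0.0711 to 0.276, 0.0936 to 0.403, 0.0936 to 0.698 and 0.12 to 0.311, each highest without control replicate 1. In the authors' values the log2 fold changes of Cd74 and H2-Ab1 were -0.39 and -0.34 and were not called (adjusted p = 0.0506 and 0.0909, limma).

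Ttr, Ecrg4, Kl and Clic6, known from the choroid plexus, fell on CR and rose on βL against the same control arrays. Ttr, which encodes transthyretin, the carrier of thyroid hormone that choroid plexus secretes in bulk, was at 13.61 and 13.45 on control, 11.78 and 11.74 on CR and 14.71 and 14.56 on βL. Arrays of the 3 diets did not overlap, and the CR level was 3.42-fold lower than control (log2 fold change -1.78, SE 0.10, adjusted p = 0.00161, limma). Ecrg4, a secreted peptide precursor, was at 7.30 and 7.12 on control, 6.07 and 5.96 on CR and 8.60 and 8.68 on βL (log2 fold change -1.20, adjusted p = 0.012, limma). Kl, the gene of the ageing-related protein klotho, was at 6.67 and 6.77 on control, 5.65 and 5.78 on CR and 7.87 and 8.10 on βL (log2 fold change -1.01, adjusted p = 0.03, limma). A second feature of Kl was above background on 0 brain arrays. Clic6, a chloride channel family member, was at 8.24 and 8.35 on control, 7.58 on each CR array and 9.13 and 9.11 on βL (log2 fold change -0.71, adjusted p = 0.0409, limma). In these genes the order CR, control, βL was the same and no array of one diet reached into another. All 4 were called on βL as well, as higher than the same control arrays (log2 fold changes of 1.10, 1.43, 1.26 and 0.83 in the order named, adjusted p = 0.00446 to 0.0167, limma), and each comparison shares the 2 control arrays.

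Of 26 measured of 40 listed choroid plexus genes, 4 were called lower on CR, 18 lay below 0 and the median was -0.18, against 0.44 on βL. The CR median was -0.37 without either βL array, which changes the genes measured, and -0.08 with no filter on dim features. The channel subunit Kcne2 and the water channel Aqp1 were above background on no CR array and at least 1.46-fold and 1.13-fold lower there, and the secreted inhibitor Sostdc1 was at -0.60, none of them called (adjusted p = 0.164 to 0.305, limma). In all, 8 of the 26 were measured without any CR array above background, among them Folr1 (0.05) and Cldn2 (-0.05), which were also below background on both control arrays and whose values carry no order there. The summed intensity of the 26 genes was 17763 and 16135 on control, 7872 and 7919 on CR and 33565 and 30844 on βL. Ttr alone made up most of the sum on the control and βL arrays and most of its differences between diets. The sum therefore does not describe the list as a whole. How much choroid plexus the dissection took along is not given in the sources used here, and its part in these differences was not tested. Ciliated ependymal genes, which mark the neighbouring ventricle lining, had 12 members measured, 0 called, 10 below 0 and a median of -0.16. Genes of meningeal fibroblasts, another tissue at the surface, had 23 measured, 0 called and a median of -0.01. Ttr was called in each of 6 fits with 1 array left out (adjusted p = 0.00929 to 0.041, limma) and in the authors' values, where its log2 fold change was -2.19. Ecrg4, Kl and Clic6 were called in no such fit, with adjusted p values (limma) of 0.0711 to 0.214, 0.0821 to 0.316 and 0.146 to 0.385, and Kl was at -0.37 in the authors' values (adjusted p = 0.101).

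Red cell genes lay on the same sides of control as choroid plexus genes, without passing the test. Of 10 listed genes 3 were measured, 0 were called and all 3 lay below control with CR (median -0.45) and above control with βL (median 0.94). Hba-a1, an alpha globin gene, was at 12.49 and 12.48 on control, 12.15 and 12.05 on CR and 13.36 and 13.49 on βL (log2 fold change on CR -0.38, adjusted p = 0.329, limma). Alas2, the first enzyme of heme synthesis in red cells, was at 6.38 and 6.52 on control, 5.72 and 5.83 on CR and 7.18 and 7.59 on βL. By contrast, the neutrophil list had a median of -0.60 with βL. The amount of blood left in the tissue was not recorded in the sources used here, and its part in these values was not tested.

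**Figure D3:**
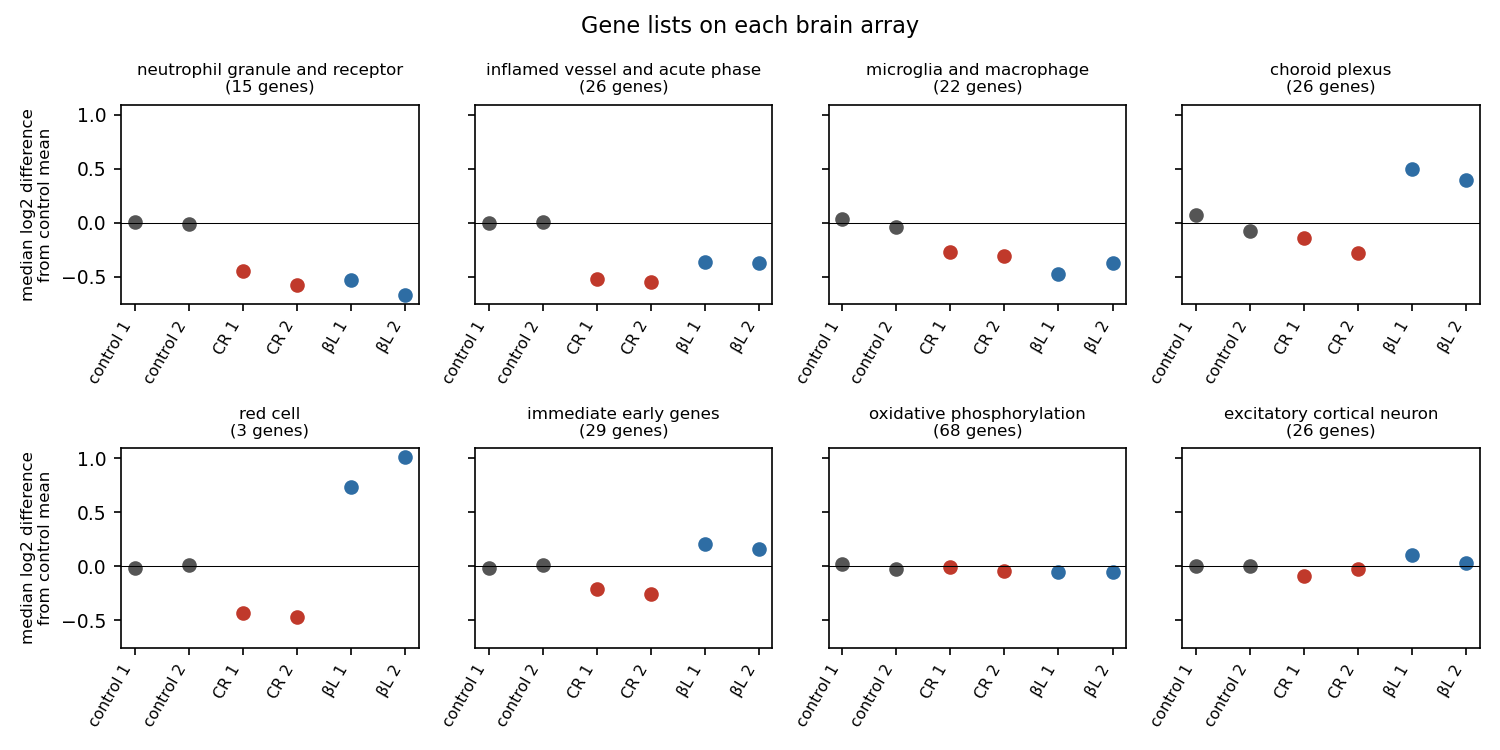
Median log2 difference from the control mean (vertical axis) over the measured genes of 8 lists on each of the 6 brain arrays (horizontal axis). The neutrophil, vessel and macrophage lists are below control on CR and βL, the choroid plexus, red cell and immediate early lists are below control on CR and above it on βL, and oxidative phosphorylation and cortical neuron genes stay between -0.09 and 0.10.

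Npas4, Arc, Fos and Junb, immediate early genes that trace recent neuronal activity, fell on CR. Npas4, an activity-dependent transcription factor found almost only in neurons, was at 8.15 and 7.99 on control, 6.69 and 6.77 on CR and 8.02 and 8.03 on βL. Its level on CR was 2.53-fold lower (log2 fold change -1.34, 95% interval -1.56 to -1.12, adjusted p = 0.00457, limma). A second feature of Npas4 was above background on 0 brain arrays. Arc, which acts at synapses on AMPA receptor traffic, was at 10.95 and 10.85 on control, 10.03 and 9.98 on CR and 11.15 and 11.04 on βL (log2 fold change -0.89, adjusted p = 0.0224, limma). Fos, the classical marker of active neurons, was at 10.72 and 10.62 on control, 9.86 and 9.84 on CR and 10.93 and 10.84 on βL (log2 fold change -0.82, adjusted p = 0.0293, limma). Junb, a partner of Fos in the AP-1 factor, was at 9.99 and 10.04 on control, 9.13 on each CR array and 10.05 and 10.17 on βL (log2 fold change -0.88, adjusted p = 0.0224, limma). For all 4 genes both CR arrays were the lowest of the 6 and the βL arrays lay within the control range or above it.

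Most genes of this kind did not pass the test. Of 29 measured of 42 listed, 4 were called lower and 0 higher, 11 were lower and 1 higher at an unadjusted p under 0.05, 22 lay below 0 and the median was -0.18 on CR and 0.16 on βL. Egr2 was at 8.82 and 9.05 on control and at 8.18 and 8.13 on CR (log2 fold change -0.78, adjusted p = 0.0622, limma). Dusp1, a phosphatase that ends MAP kinase signals, was at -0.44 and Gadd45g at -0.51 (adjusted p = 0.263 and 0.291). Other members stood near control, with Egr1 at -0.18, Bdnf, the neurotrophin, at -0.01, Nptx2 at 0.01 and Homer1 at 0.23, none of them called. Of 20 measured clock genes 0 were called and the median was 0.03, with Per1 at 0.03, Per2 at 0.18, Dbp at 0.24 and Ciart highest at 0.32. At an unadjusted p under 0.05, 3 of the 20 were higher and 0 lower, where 3.49% of all genes were higher. Of 24 genes that glucocorticoids induce, 1 was called lower (Lcn2, which other stimuli induce too), 19 lay below 0 and the median was -0.11, below the lower quartile of all genes. At an unadjusted p under 0.05, 7 of the 24 were lower and 0 higher. The median of the list on single arrays, as a log2 difference from the control mean, was -0.16 and -0.13 on CR, -0.13 and -0.19 on βL and -0.01 and 0.01 on control. Nfkbia, the inhibitor of NF-kappaB, was at -0.51, Ddit4 at -0.43 and Sgk1 at -0.19, and Tsc22d3 at -0.08 and Fkbp5 at 0.11 were nearer control, none of them called. Of 19 cytosolic chaperones 0 were called and the median was 0.03. The hour of tissue collection and how the animals were handled before it are not given in the sources used here, and their part in the difference was not tested. With 1 array left out, Npas4 kept its call in 3 of 6 fits and its adjusted p was 0.111 without control replicate 1, 0.0565 without control replicate 2 and 0.056 without CR replicate 1. Arc (adjusted p = 0.0936 to 0.311, limma), Fos (0.0957 to 0.376) and Junb (0.0821 to 0.276) were called in no such fit, although their log2 fold changes stayed between -0.77 and -0.94.

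The 250 bases before the start of Fos, Junb and Npas4 follow, from RefSeq (GRCm38.p6) and 5′ to 3′ on the gene's strand, since genes that neuronal activity switches on are classically driven through the cyclic AMP response element. Capitals mark its core (TGACG on either strand, so also CGTCA) or a TATA box (TATAA on the gene's strand). The Fos window is chr12:85473640-85473889 (plus strand), that of Junb chr8:84978749-84978998 (minus strand) and that of Npas4 chr19:4989972-4990221 (minus strand).
Fos: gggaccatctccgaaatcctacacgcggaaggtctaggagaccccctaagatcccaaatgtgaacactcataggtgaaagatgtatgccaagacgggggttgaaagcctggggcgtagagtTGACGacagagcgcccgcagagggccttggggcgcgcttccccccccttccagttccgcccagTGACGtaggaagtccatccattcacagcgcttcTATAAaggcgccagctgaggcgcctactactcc
Junb: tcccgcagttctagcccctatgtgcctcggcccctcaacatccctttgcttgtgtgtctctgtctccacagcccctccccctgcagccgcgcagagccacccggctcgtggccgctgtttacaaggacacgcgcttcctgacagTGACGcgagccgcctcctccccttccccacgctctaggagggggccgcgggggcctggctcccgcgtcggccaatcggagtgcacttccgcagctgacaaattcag
Npas4: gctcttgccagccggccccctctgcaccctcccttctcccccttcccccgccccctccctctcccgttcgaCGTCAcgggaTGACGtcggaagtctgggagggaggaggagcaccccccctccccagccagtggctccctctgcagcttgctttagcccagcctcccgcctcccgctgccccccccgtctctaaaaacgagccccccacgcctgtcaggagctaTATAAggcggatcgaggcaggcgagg
This core stands in each window, with the one nearest the start at position -66 in Fos, -106 in Junb and -169 in Npas4. It is held by 17.8% of the 32851 windows in the table and by 5 of the 16 called genes whose window was read, the others being Ch25h and Ecrg4. A TATA box, held by 5255 of the 32851 windows, starts at -33 in Fos and at -26 in Npas4. Both motifs are described here as letters only.

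Erdr1 was the 1 gene that rose on CR. Its log2 intensity was 9.01 and 8.95 on control, 10.09 and 9.88 on CR and 9.29 and 9.36 on βL, so that the CR arrays were the highest of the 6 (log2 fold change 1.01, SE 0.10, adjusted p = 0.0224, limma). The gene lies in a repetitive region shared by the sex chromosomes, where copies cannot be told apart with certainty by a single feature. It was called in no fit with 1 array left out (adjusted p = 0.0704 to 0.276, limma, highest without control replicate 1). The genes next in line on the higher side did not pass. Serpina9 was at 5.19 and 5.12 on control, both below background, and at 5.84 and 5.92 on CR (adjusted p = 0.0777, limma). Gal, which encodes the feeding peptide galanin, was at 5.03 and 5.12 on control, also below background, at 5.66 and 5.57 on CR and at 6.13 and 6.16 on βL (adjusted p = 0.163, limma). Further down by p, behind other higher genes, was Nampt, the enzyme that limits NAD salvage. Its log2 intensity was 7.28 and 7.22 on control and 7.54 and 7.84 on CR (log2 fold change 0.44, adjusted p = 0.395, limma).

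Lists of energy metabolism and of protein synthesis had medians close to 0 on CR. Of 68 measured genes of the respiratory chain 0 were called and the median log2 fold change was -0.02, within a range of -0.25 to 0.24. The medians were -0.01 for 17 genes of glycolysis, 0.07 for 21 of the citric acid cycle, 0.06 for 16 of mitochondrial biogenesis, -0.05 for 20 of fatty acid oxidation and ketone use and -0.06 for 54 of the cytosolic ribosome, with 0 called in each. Each of these medians lay between the quartiles of all genes, although 42 of the 54 ribosomal genes lay below 0. With 0.221% of all genes called lower, 0 called in a list of this size says little about its members. Of 16 measured genes of NAD metabolism and the sirtuins 0 were called and the median was 0.01. At an unadjusted p under 0.05, 2 of the 16 were higher (Nudt12 at 0.47 and Nampt at 0.44) and 0 lower, where 3.49% of all genes were higher. Sirt1, the NAD-dependent deacetylase often tied to calorie restriction, was at 8.37 and 8.27 on control and at 7.99 and 8.18 on CR (log2 fold change -0.24, adjusted p = 0.615, limma). Its mitochondrial relative Sirt3 was at 0.11, and Ppargc1a, the coactivator of mitochondrial biogenesis, at -0.05 with overlapping diets (95% interval -0.61 to 0.52). Nqo1, the quinone reductase that βL uses, was at 6.16 and 6.19 on control, 6.61 and 6.38 on CR and 5.98 and 6.32 on βL (log2 fold change on CR 0.32, adjusted p = 0.643, limma).

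Cell type lists gave medians of -0.08 for 26 genes of excitatory cortical neurons, 0.07 for 21 of interneurons and neuropeptides, -0.04 for 19 of astrocytes and -0.02 for 25 of myelin, with 0 called in each. The microglia and macrophage list stood lower than these, at -0.29 with 2 of 22 called. Among the 25 myelin genes 6 were lower and 0 higher at an unadjusted p under 0.05. No gene was called either among 42 potassium channel genes (0.01), 23 of synaptic vesicles (0.04), 21 of the postsynaptic density (-0.10), 11 glutamate receptor subunits (-0.00064) and 6 GABA receptor subunits (0.01). The last of these rests on few genes, since 14 of the 20 listed were not measured. Lists of genes of brain regions had medians of 0.00349 for striatum (20 genes), -0.02 for hippocampus (13), 0.06 for thalamus (15), 0.06 for hypothalamus (15) and 0.05 for cerebellum and brainstem (10), again with 0 called. On βL the thalamic median was 0.32. A single gene of the synapse, Dlg2, a scaffold of the postsynaptic density, was at 10.63 on each control array and at 10.17 and 10.15 on CR without passing (log2 fold change -0.47, adjusted p = 0.19, limma).

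**Figure D4:**
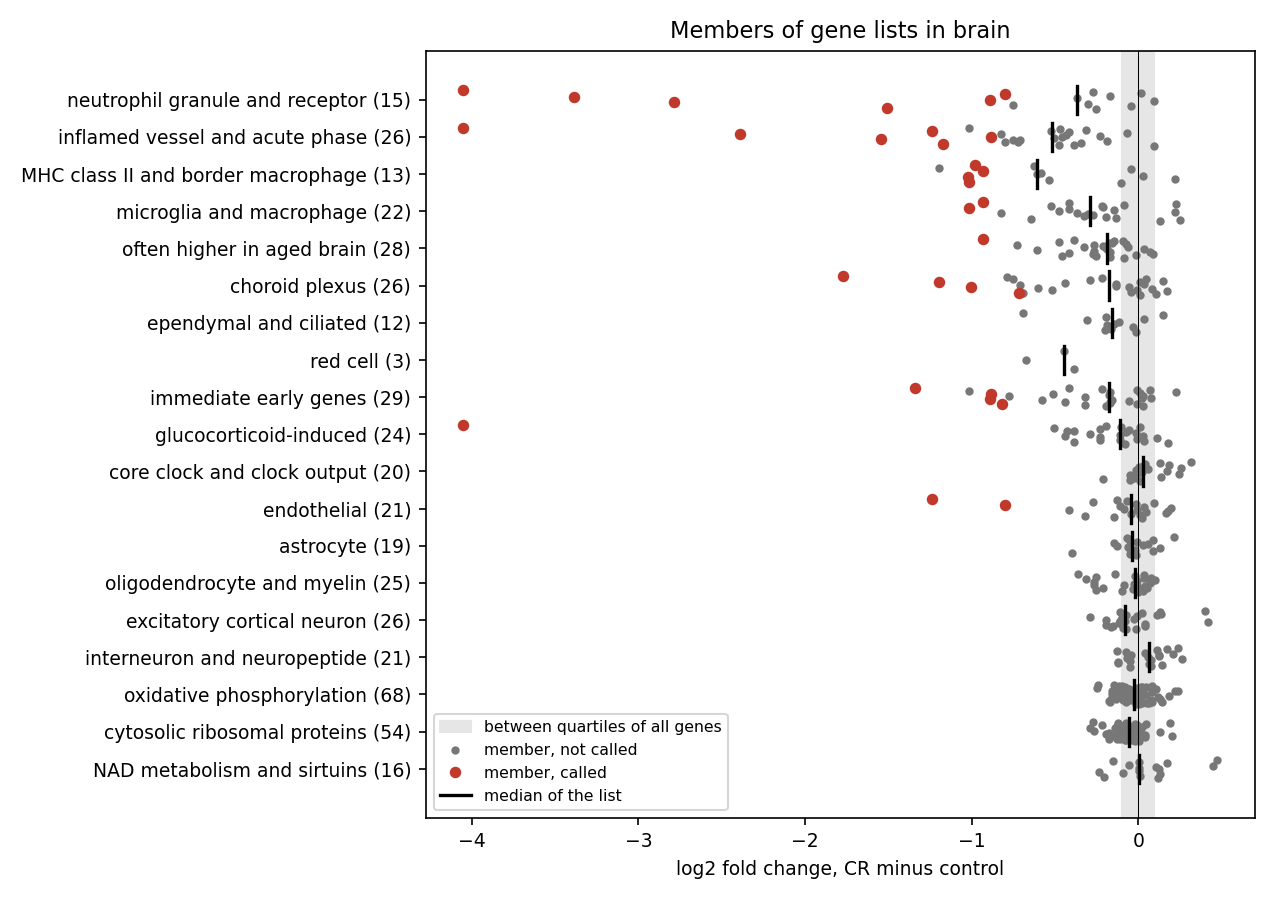
Log2 fold change of CR minus control (horizontal axis) for each measured gene of 19 lists, with the number measured in brackets, called genes in red and the median of each list as a bar. The grey band runs between the quartiles of all 9956 genes, -0.0957 to 0.0919. The inflammatory lists, the choroid plexus and the immediate early genes reach far to the left. The medians of the metabolic, ribosomal and neuronal lists lie in the band, while single members lie outside it.

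The 22 lower genes fell into 2 sets when the βL arrays were read beside the CR arrays. In 14 of them, which are Ch25h and all those of neutrophils, the acute phase, vessels and macrophages, the βL mean was also below control by a fold of 1.5 or more. For these the control arrays were the high ones among the 6. In 7, all of the choroid plexus or immediate early, the βL mean was above control, and Npas4 on βL differed from control by -0.05. Both comparisons use the same 2 control arrays, so agreement between them is no independent support.

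The CR difference in brain was set against that in skeletal muscle of the same study in 1 fit of all 14 arrays (10765 genes). Lcn2 was at -3.77 in brain and -0.49 in muscle in that fit, but it was above background on 0 of the 5 muscle arrays of control and CR, so the tissues cannot be compared for it. Of the other 22 called genes none had a difference between the tissues at an adjusted p under 0.05. The estimates for Ttr were close, at -2.22 in brain and -2.08 in muscle, where 1 of the 5 arrays was above background (difference -0.14, SE 1.37, adjusted p = 0.997, limma). Lrg1, above background on all 5 muscle arrays, was at -1.64 in brain and 0.13 in muscle (difference -1.77, adjusted p = 0.0516, limma). Npas4 (-1.33) and Slc38a5 (-1.25), both below background in muscle control and CR, had an adjusted p of 0.0944 each. Erdr1 was at 1.10 in brain and 1.55 in muscle, and the difference did not pass (-0.45, SE 0.41, adjusted p = 0.995, limma). S100a8, at -3.47 in brain and 0.60 in muscle, did not pass either (difference -4.08, SE 0.80, adjusted p = 0.384, limma).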

How the data were processed

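RNA of mouse brain and skeletal muscle had been hybridized to Illumina Mouse-8 BeadChips and read with BeadStudio, as the submitters' processing notes and the study's methods state. The authors deposited intensities before normalization for each feature and array, and beside them detection p-values that compare a feature with negative control beads. A second deposited table holds the authors' quantile-normalized intensities on a linear scale, used here as an alternative. Array values carry no depth, and their number limits the precision. All per-sample columns could be mapped to a sample.

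Background was modelled with normexp (control beads inferred from detection p-values, offset 16), followed by quantile normalization over the 6 brain arrays and log2. Features above background (detection p under 0.05) on 2 or more brain arrays were kept, and the one with the highest mean stood for its gene. Of the features, 23978 carried 1 gene symbol, 0 several and 1719 none. Of the 14548 kept, 837 had no symbol and entered no count of genes, and 0 of these were called when all kept features were tested. Gene names came from the platform's annotation, and the reference table changed 0 symbols. The 3 diets were fitted with limma 3.58.1 (R 4.3.3), with Benjamini-Hochberg adjustment over 9956 genes. The methods name no test for the arrays, and a t-test for the study as a whole, so that test is given as an alternative under the name the methods' t-test. The limma fit was tested before use on values simulated with normal noise around the normalized means. Background correction, normalization, the filter and the choice of feature were not part of that test.

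Named genes were the called genes without overlap between diets, up to 15 in each direction by size, up to 6 members of each list with the smallest p, and a few genes of the study's subject. The remaining called genes and other members were named after their values were seen. The members and lists were chosen with earlier results of these data known, and 3 lists (neutrophil, inflamed vessel, MHC class II) after the present values were seen. Promoter windows are RefSeq sequences of the build GRCm38.p6, read for 16 of the 23 called genes. For called genes, windows on chromosome 18, where Ttr and Cd74 lie, were left out. Alternatives covered background, normalization, filter, features kept, arrays in the fit, weights, the test, a replicate block and leaving out each array.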

Additional observations from a re-analysis of the deposited data

Results flagged for a closer look

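The fit of both tissues gave Lcn2 a difference in its CR effect that cannot be read as a difference between tissues. The log2 effect in brain minus that in muscle was -3.278 (limma, adjusted p = 6.42e-06). The value was -3.42 without muscle control replicate 1, -3.15 without muscle control replicate 2 and -1.83 without background correction, each past the threshold. Lcn2 was lower on both CR arrays than on both control arrays of brain. In muscle it was above background on 0 of the 5 control and CR arrays, so its value there sets background against background, and in brain it was above background on the control arrays only, which is how it passed the filter. The difference therefore repeats the brain value that selected the gene.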

How the results depend on the processing

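Wherever genes were called, more were lower than higher. List medians are given here for a chosen set of lists, all below 0 in the main fit. These were the immediate early, choroid plexus, microglia and macrophage, interferon, aged brain, neutrophil, inflamed vessel and MHC class II lists. Their medians stayed below 0 in every alternative in which they were computed. That left out the replicate block, array weights, the methods' t-test, every feature kept and the fit of control and CR arrays alone. Called genes numbered 23 (22 lower, 1 higher). They numbered 36 (34 lower, 2 higher) with the authors' normalized values, 32 without background correction, 31 with an offset of 50 and 31 with both tissues normalized together. They numbered 30 (2 higher) with a detection p under 0.01, 16 with every feature kept, 22 with no filter, 24 with a filter on the 4 control and CR arrays and 23 with array weights. With only the control and CR arrays 8 were called (8 lower, 0 higher), and by the methods' t-test 0 (0 lower, 0 higher). With 1 array left out 3 to 8 were called (3 to 8 lower, 0 higher). With the replicate block 15 were called (15 lower, 0 higher). Whether the replicate numbers mark pairs cannot be settled with 2 arrays for each diet. Over genes, deviations from the group means correlated with r = 0.181 between control and CR. The values were 0.031 between control and βL and -0.114 between CR and βL. Past a fold of 1.5 stood 65 genes (57 lower, 8 higher). They numbered 29 (28 lower, 1 higher) without background correction, 31 (30 lower, 1 higher) with an offset of 50, 18 (17 lower, 1 higher) with the authors' values and 42 (1 higher) with both tissues together. They numbered 89 features (15 higher) with every feature kept and 55 genes (5 higher) with a detection p under 0.01, and 63 to 153 passed with 1 array left out (56 to 125 lower, 7 to 55 higher).

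List medians, in log2, moved more than the spread between arrays as follows. Without background correction they were -0.0835 (interferon and antigen presentation), -0.159 (often higher in aged brain), -0.198 (neutrophil granule and receptor), -0.394 (inflamed vessel and acute phase) and -0.364 (MHC class II and border macrophage). With an offset of 50 these 5 lists had -0.0858, -0.169, -0.227, -0.412 and -0.412, and with the authors' values -0.0576, -0.133, -0.109, -0.331 and -0.216, beside -0.211 for microglia and macrophage. With both tissues together immediate early genes had -0.207, neutrophil genes -0.285 and MHC class II genes -0.523. With no filter the medians were -0.126 (immediate early genes), -0.0768 (choroid plexus), -0.216 (microglia and macrophage), -0.202 (neutrophil), -0.431 (inflamed vessel) and -0.127 (MHC class II). With a filter on the control and CR arrays choroid plexus had -0.366 and neutrophil genes -0.753. With a detection p under 0.01 choroid plexus had -0.442, aged brain -0.234, neutrophil genes -0.777 and inflamed vessel -0.624. With 1 array left out the medians ran from -0.254 to -0.183 (immediate early genes), -0.367 to -0.141 (choroid plexus), -0.191 to -0.112 (interferon), -0.247 to -0.167 (aged brain), -0.757 to -0.306 (neutrophil) and -0.544 to -0.479 (inflamed vessel), with at least 1 of these fits outside the spread for each. A filter changes which genes enter a median, and the other causes were not tested. Values of features below background carry no order, which limits the size of any fold change of a dim gene.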
